A study of Mus musculus with 15 samples.

Results

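LY294002 and trichostatin A (TSA) were compared with each other in primary mouse chondrocytes, the cells that make cartilage. The 3 arrays of LY294002-treated cells were set against the 3 arrays of TSA-treated cells, 6 of the 15 arrays of the series. Every gene was then sorted by the direction in which each inhibitor moved it relative to the 3 arrays of the vehicle DMSO. All genes entered: 18194 genes had a probe set of 1 gene symbol, and the 11751 whose mean signal was 50 or more in 1 or more of the 5 groups were tested. Tibiae, femurs and humeri of CD1 mice at embryonic day 15.5 gave the cells, which were cultured as a monolayer. The cultures received LY294002 at 10 µM, TSA, or DMSO for 24 hours; the TSA dose is left out because its unit could not be read. The other 6 arrays, of the MEK inhibitor UO126 and of SB202190, usually described as a p38 inhibitor, shared in the estimate of the spread. Whole long bones were used, and no sort is named that would have removed the other cell types of the skeletal element.

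LY294002 blocks the lipid kinase PI3K, which growth factors such as IGF1 and insulin switch on. PI3K products activate the kinase Akt, and Akt keeps FoxO transcription factors out of the nucleus and, through mTOR, promotes the activity of SREBP, the factor that drives genes of sterol and fatty acid synthesis. TSA blocks histone deacetylases, enzymes that remove acetyl groups from histones and from other proteins; in mouse cartilage the deacetylase HDAC4 restrains chondrocyte hypertrophy. Both routes therefore end at transcription, by unlike means.

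The cells carried chondrocyte transcripts on all 9 arrays of the 3 groups. Col2a1, the main collagen of cartilage, had signals of 5509 ± 1032 with LY294002, 5634 ± 769 with TSA and 5700.0 ± 1582 with DMSO (mean ± SD, n = 3 arrays, as for every group below), and was not called in any of the 3 comparisons. Its signals on the 9 arrays ran from 3903 to 6880, where the highest signal of any probe set on an array was 5165 to 8622. Whether a change could still be seen at such signals was not tested. Acan, the core protein of the major cartilage proteoglycan, averaged 2936 with LY294002, 519 with TSA and 2515 with DMSO. Signals are MAS5 intensities, scaled by the authors to a trimmed mean of 150 on every array, so they are linear but cannot be set against the signals of another probe set. Between arrays, log2 signals correlated at 0.970 to 0.978 within LY294002, 0.976 to 0.978 within TSA and 0.967 to 0.976 within DMSO, at 0.845 to 0.861 between LY294002 and TSA, at 0.953 to 0.974 between LY294002 and DMSO and at 0.842 to 0.854 between TSA and DMSO. The number of arrays limits the precision. The arrays are described as biological replicates, from independent experiments for LY294002 and DMSO; the labels do not say which arrays of different groups share an experiment, and the p-values measure the spread between these arrays.

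LY294002-treated and TSA-treated chondrocytes differed in the expression of 6860 of the 11751 genes (limma, adjusted p under 0.05). With LY294002, 3403 genes were higher than with TSA (29% of the genes tested) and 3457 were lower (29.4%). At least a 2-fold difference was reached by 1099 of the higher and 1179 of the lower genes, and at least an 8-fold difference by 54 and 132. Genes that reached the signal limit with TSA alone were tested and could hardly be higher with LY294002. With the limit required in 2 of 5 groups, 3360 genes were higher and 2940 lower with LY294002 than with TSA. The fold counts were not recounted with that filter, so their imbalance is not read as a difference between the inhibitors. The 3 arrays of LY294002 lay wholly above or wholly below the 3 arrays of TSA in 7604 genes (64.7%). Against DMSO, 1113 genes were called with LY294002, 662 higher (5.63%) and 451 lower (3.84%), whereas 6926 were called with TSA, 3593 higher (30.6%) and 3333 lower (28.4%). A change of at least 2-fold was reached by 27 of the higher and 60 of the lower genes with LY294002, and by 1228 and 1069 with TSA. With the signal limit required in 2 of 5 groups, 3121 genes were higher and 3280 lower with TSA than with DMSO. The LY294002 count depended on single arrays: it was 645, 544 and 688 without LY294002 arrays 1, 2 and 3, and 580 and 580 without DMSO arrays 2 and 3. Arrays of the same number deviated together in LY294002 and DMSO, and with the number as a block the count was 1924 (1117 higher and 807 lower). The counts, classes and p-values below are from the fit without the block, which ignores this pairing, unless the block is named.

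Most genes called between LY294002 and TSA were called against DMSO with TSA alone. Of the 3403 genes higher with LY294002 than with TSA, 2532 (74.4%) were called against DMSO with TSA alone, 137 with LY294002 alone, 270 with both inhibitors and 464 with neither. The 3457 genes lower with LY294002 divided alike, into 2594 (75.0%), 94, 299 and 470.

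Among the genes with the largest excess of LY294002 over TSA were Angptl7, Aspn, Ucma, Matn3, Matn1, C1qtnf3, Scrg1 and Igfbp5. Aspn, which encodes the small leucine-rich proteoglycan asporin, gave 924, 984 and 676 with LY294002, 14.3, 15.6 and 13.7 with TSA, and 749, 796 and 549 with DMSO. The LY294002 and DMSO arrays lay in one range and the TSA arrays far beneath it, below the signal of 50 that served as the lower limit (log2 difference between LY294002 and TSA 5.87 ± 0.23, estimate ± SE, adjusted p = 3.8e-11). Ucma, a secreted protein of the upper growth plate, gave 789, 735 and 925 with LY294002, 38.4, 47.3 and 53.9 with TSA, and 774, 725 and 899.7 with DMSO, and again only the TSA arrays stood apart (4.14 ± 0.12, adjusted p = 2.8e-12). Igfbp5, which binds IGF1 and IGF2, gave 1704, 1702 and 1736 with LY294002, 112, 114 and 115 with TSA, and 1890.1, 2301 and 2605 with DMSO, with the 3 LY294002 arrays above every TSA array and below every DMSO array (3.91 ± 0.12, adjusted p = 4.2e-12). Matn3 and Matn1, matrilins that link matrix filaments, differed by 3.91 ± 0.29 and 3.86 ± 0.18, C1qtnf3 by 4.02 ± 0.13 and Scrg1, a small secreted protein of cartilage, by 3.81 ± 0.17. None of Aspn, Ucma, Matn3, Matn1, C1qtnf3, Scrg1 and Igfbp5 was called between LY294002 and DMSO without the replicate number as a block. With the block, Matn1 was higher with LY294002 (0.59 ± 0.18 without the block, adjusted p = 0.0023 with it) and Igfbp5 lower (-0.39 ± 0.12 without the block, adjusted p = 0.0244 with it).

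In the other direction stood genes with low signals in LY294002 and DMSO and high signals in TSA. Uchl1, a ubiquitin hydrolase best known from neurons, gave 67.8, 63.1 and 49.4 with LY294002, 1278, 1241 and 1095 with TSA, and 61.6, 56.2 and 63.5 with DMSO, with LY294002 and DMSO overlapping and TSA far above both (-4.33 ± 0.19, adjusted p = 9.7e-11). Bex1, a brain-expressed X-linked gene, gave 294, 212 and 172 with LY294002, 4895, 5214 and 4297 with TSA, and 480.5, 262 and 183 with DMSO; its LY294002 and DMSO arrays overlapped as well (-4.44 ± 0.32, adjusted p = 1.8e-08). Cystm1 gave 49.6, 50.6 and 58.1 with LY294002, 1432, 1422 and 1527 with TSA, and 114, 84.3 and 99.8 with DMSO, the LY294002 arrays being lowest of all (-4.79 ± 0.14, adjusted p = 2.8e-12). Chchd10, Bex4, the type I keratin Krt19 and Krtap1-5 differed by -4.76 ± 0.26, -4.64 ± 0.24, -4.02 ± 0.20 and -4.45 ± 0.20 between LY294002 and TSA.

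Sorting by direction placed 835 genes in the set called against DMSO with both inhibitors, 75.0% of the genes called with LY294002. Of these, 589 (70.5%) moved the same way and 246 (29.5%) moved in opposite directions. Genes higher with both numbered 367 (3.12% of all genes tested) and genes lower with both 222 (1.89%). Genes higher with LY294002 and lower with TSA numbered 134 (1.14%), and genes lower with LY294002 and higher with TSA 112 (0.953%). A further 137 (1.17%) and 94 (0.8%) were higher or lower with LY294002 against both DMSO and TSA without being called for TSA against DMSO. Both changes are measured from the same DMSO arrays, which can move them together, so the counts are given without a test. With TSA set against the UO126 and SB202190 arrays instead, 829 genes were called with both, 488 of them (58.9%) the same way and 341 (41.1%) in opposite directions. UO126 and SB202190 are inhibitors too, and any change they share with LY294002 also enters these shares. The difference from 70.5% can therefore not be assigned to the shared DMSO arrays. The class counts followed the LY294002 calls: leaving out LY294002 array 1, 2 or 3 or DMSO array 2 or 3 lowered most of them by more than 1.5-fold, the 4 main ones to as few as 190 (without DMSO array 3), 111 and 62 (without LY294002 array 2) and 44 (without DMSO array 2), and the last 2 to 63 and 53 (without LY294002 array 2). With the block they were 587, 400, 268, 189, 217 and 161. The opposite genes were a small part of the direct difference, 3.59% of the 6860 genes called between LY294002 and TSA.

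**Figure D1:**
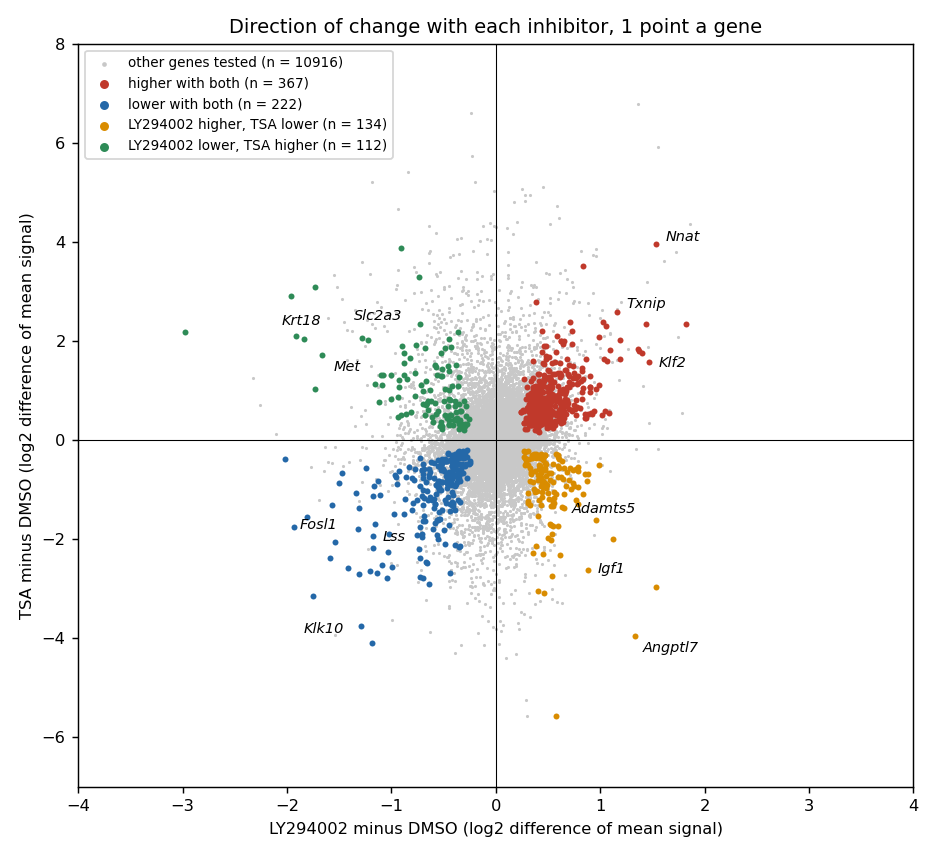
Each point is 1 of the 11751 genes, with its log2 difference between LY294002 and DMSO on the x axis and between TSA and DMSO on the y axis; colours mark the classes of the sort. The 367 genes higher with both and 222 lower with both lie at the upper right and lower left, the 246 opposite genes at the upper left and lower right, and the cloud is taller than it is wide.

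Among genes higher with both inhibitors were a transcription factor and a metabolic regulator that FoxO factors are known to control. Klf2, a Krüppel-like factor, gave 708, 774 and 562 with LY294002, 826, 797 and 594 with TSA, and 232, 249 and 249.6 with DMSO. Both inhibitors lay above every DMSO array and overlapped each other, with differences from DMSO of 1.47 ± 0.15 with LY294002 (adjusted p = 9.6e-05) and 1.59 ± 0.15 with TSA (adjusted p = 3.7e-07), and of -0.12 ± 0.15 between LY294002 and TSA (adjusted p = 0.55). Txnip, the thioredoxin-interacting protein that lowers glucose uptake, gave 922, 918 and 1169.5 with LY294002, 2886, 3059.6 and 2177 with TSA, and 412, 422 and 504 with DMSO. Here the 3 groups were apart and in order, LY294002 standing 2.24-fold over DMSO (1.17 ± 0.15, adjusted p = 0.00054) and TSA higher than LY294002 (-1.43 ± 0.15, adjusted p = 1.2e-06). Nnat, an imprinted proteolipid gene, gave 122, 152 and 153 with LY294002, 840.1, 722 and 717 with TSA, and 47.2, 39.8 and 61.8 with DMSO, also with no overlap of groups (1.54 ± 0.16 with LY294002 and 3.96 ± 0.16 with TSA against DMSO, and -2.42 ± 0.16 between them, adjusted p = 6e-09).

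The remaining genes chosen from those higher with both had a larger rise with TSA. Ptpn13, a tyrosine phosphatase, averaged 229.5 with LY294002, 379.6 with TSA and 108 with DMSO and Tcp11l2 292 with LY294002, 423 with TSA and 141 with DMSO, and the differences between LY294002 and TSA were -0.72 ± 0.15 (adjusted p = 0.00074) and -0.54 ± 0.13 (adjusted p = 0.0025). Dusp1, a phosphatase of MAP kinases and an immediate early gene, gave 2297, 2281 and 1367 with LY294002, 4321, 4240.5 and 2174 with TSA, and 808, 749.6 and 1002 with DMSO, so that array 3 was the lowest of its group with both inhibitors and the LY294002 and TSA arrays overlapped. Its call between LY294002 and DMSO (adjusted p = 0.036) was lost without LY294002 arrays 1 or 2 (0.12 and 0.116) or DMSO arrays 1, 2 or 3 (0.0674, 0.113 and 0.0619), and that between LY294002 and TSA (adjusted p = 0.043) without LY294002 array 3 (0.181) or TSA arrays 1 or 2 (0.154 and 0.146).

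The promoters of Klf2 and Txnip are shown because these genes were among the leading ones of the class, with matches to GC boxes (GGGCGG) and to a FoxO element (GTAAACA) in capitals; both are from RefSeq on build GRCm38.p6 and cover the 250 bases before the start. Klf2 lies at chr8:72318812-72319061 on the plus strand and Txnip at chr3:96557707-96557956 on the plus strand.
Klf2: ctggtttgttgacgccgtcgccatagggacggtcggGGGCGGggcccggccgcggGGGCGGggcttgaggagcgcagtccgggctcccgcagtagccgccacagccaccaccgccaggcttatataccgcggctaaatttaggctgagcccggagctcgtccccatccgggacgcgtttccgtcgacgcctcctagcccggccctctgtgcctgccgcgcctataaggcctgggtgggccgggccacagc
Txnip: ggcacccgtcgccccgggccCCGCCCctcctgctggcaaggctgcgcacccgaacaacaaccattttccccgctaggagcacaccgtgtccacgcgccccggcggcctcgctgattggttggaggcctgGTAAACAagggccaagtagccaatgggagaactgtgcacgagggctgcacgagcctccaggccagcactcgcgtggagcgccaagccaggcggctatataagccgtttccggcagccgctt
Klf2 held 2 GC boxes, starting 214 and 195 bases before the start. Txnip held a GC box on the opposite strand, 230 bases before the start, and the FoxO element 121 bases before it.

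Genes lower with both included a transcription factor, a protease and enzymes of lipid synthesis. Fosl1, an AP-1 transcription factor, gave 125, 121 and 143 with LY294002, 88.6, 92.7 and 98.5 with TSA, and 282, 324 and 371 with DMSO. The 3 groups did not overlap, and LY294002 lay between TSA and DMSO (-1.32 ± 0.14 against DMSO, adjusted p = 0.00011; 0.47 ± 0.14 against TSA, adjusted p = 0.0098). Klk10, a secreted kallikrein-related peptidase, gave 335, 260.4 and 332 with LY294002, 47.03, 64.7 and 56.98 with TSA, and 762, 574 and 970.3 with DMSO, with the same order but a wide gap between LY294002 and TSA (2.46 ± 0.22, adjusted p = 2.4e-07; -1.29 ± 0.22 against DMSO, adjusted p = 0.0036). Adcy7, an adenylyl cyclase, averaged 106 with LY294002, 73.2 with TSA and 238 with DMSO, and its call between LY294002 and TSA (adjusted p = 0.024) was lost without LY294002 arrays 1 or 3 or TSA array 1 (0.0917, 0.0738 and 0.0932). Sncg, the gamma-synuclein gene, gave 114, 65.3 and 43.7 with LY294002, 47.4, 38.4 and 34.3 with TSA, and 225, 229 and 172 with DMSO, so the LY294002 and TSA arrays overlapped; the call between them (adjusted p = 0.024) was lost without LY294002 array 1, TSA array 2 or TSA array 3 (0.146, 0.0585 and 0.0823). Kcnn4, a calcium-activated potassium channel, averaged 75.4 with LY294002, 39.7 with TSA and 203 with DMSO. Its call between LY294002 and DMSO (adjusted p = 0.03) was lost without any 1 of LY294002 arrays 1, 2 and 3 (0.0761, 0.0634 and 0.088) or DMSO arrays 1, 2 and 3 (0.0729, 0.0785 and 0.0536), and that between LY294002 and TSA (adjusted p = 0.015) without LY294002 array 2 (0.0512). Glipr1 averaged 187 with LY294002, 197 with TSA and 411 with DMSO and was not called between LY294002 and TSA (-0.04 ± 0.30, adjusted p = 0.92). Its fall with LY294002 (adjusted p = 0.027) was lost without LY294002 arrays 2 or 3 (0.0666 and 0.1) or DMSO arrays 1 or 2 (0.0602 and 0.0864).

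Enzymes of cholesterol synthesis formed a group within the genes lower with both. Of 20 members tested, 9 were lower than DMSO with LY294002 and 0 higher (median log2 difference -0.42, against 0.01 over all genes), and 17 were lower with TSA and 2 higher (median -0.86, against 0.00). Between LY294002 and TSA, 13 were higher and 2 lower (median 0.39, against -0.02). The shares over all genes were 3.84% lower and 5.63% higher with LY294002, and 28.4% and 30.6% with TSA. Between the inhibitors, 29% of all genes were higher and 29.4% lower. All 9 enzymes that fell with LY294002 also fell with TSA, as did 222 of the 451 genes that fell with LY294002 over all genes. Lss, lanosterol synthase, gave 365, 341 and 304 with LY294002, 153, 137 and 152 with TSA, and 585, 610.1 and 456 with DMSO, with no overlap of groups (-0.70 ± 0.12 against DMSO, adjusted p = 0.0036; 1.19 ± 0.12 against TSA, adjusted p = 9.1e-07). Fdps, which makes farnesyl diphosphate and was named after its values were seen, gave 1094, 929.7 and 777 with LY294002, 664, 684 and 684 with TSA, and 1622, 1489.9 and 1579.8 with DMSO, in the same order (-0.76 ± 0.11 against DMSO, adjusted p = 0.001; 0.45 ± 0.11 against TSA, adjusted p = 0.0022). Hmgcs1, the HMG-CoA synthase at the entry of the pathway, gave 1825, 1805 and 1875 with LY294002, 1621, 1777 and 1458 with TSA, and 2132, 3053 and 2423 with DMSO, and LY294002 and TSA were not called different (0.19 ± 0.11, adjusted p = 0.18). The fall of Hmgcs1 with LY294002 (adjusted p = 0.024) was lost without LY294002 arrays 1, 2 or 3 (0.0681, 0.0733 and 0.0529) or DMSO arrays 2 or 3 (0.0962 and 0.0514). Hsd17b7, a reductase late in the pathway, went the other way with TSA, averaging 204 with LY294002, 509 with TSA and 236 with DMSO (-1.32 ± 0.14 between LY294002 and TSA, adjusted p = 1.4e-06).

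The promoters of Hmgcs1 and Lss are shown as 2 members that fell together, with GC boxes and a sterol element core (CACCCCAC) in capitals (RefSeq, GRCm38.p6, 250 bases before the start). They lie at chr13:119690101-119690350 and chr10:76531355-76531604, both on the plus strand.
Hmgcs1: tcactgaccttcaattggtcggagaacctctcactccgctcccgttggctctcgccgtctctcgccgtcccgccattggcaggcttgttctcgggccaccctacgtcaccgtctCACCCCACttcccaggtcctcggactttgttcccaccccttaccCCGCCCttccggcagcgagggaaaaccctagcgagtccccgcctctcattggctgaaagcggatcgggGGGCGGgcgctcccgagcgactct
Lss: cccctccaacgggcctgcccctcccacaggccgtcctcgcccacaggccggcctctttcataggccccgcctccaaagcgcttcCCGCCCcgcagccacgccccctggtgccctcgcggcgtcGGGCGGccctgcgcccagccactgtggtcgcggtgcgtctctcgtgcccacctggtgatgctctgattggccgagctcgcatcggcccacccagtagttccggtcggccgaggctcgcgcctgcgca
Hmgcs1 held the sterol element core 136 bases before the start and GC boxes 92 bases (opposite strand) and 24 bases before it, and Lss held GC boxes 166 bases (opposite strand) and 127 bases before it. Of the 16 promoters of the cholesterol list, only that of Hmgcs1 held the sterol element core, beside 2.73% of all promoters. A match to these letters is a description of the window and was not tested for binding.

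Fatty acid genes were divided between the classes. Of 18 members tested, 8 were lower with LY294002 against DMSO and 0 higher (3.84% and 5.63% of all genes were; median -0.30, against 0.01), and 11 were lower and 4 higher with TSA (28.4% and 30.6% of all genes; median -0.42). Between LY294002 and TSA, 6 were higher and 5 lower, near the 29% and 29.4% of all genes (median 0.09, against -0.02). Of the 8, 6 fell with TSA too and 2, Acss2 and Elovl5, rose. Fads2, a fatty acid desaturase, gave 333, 335 and 314 with LY294002, 80.2, 62.2 and 102 with TSA, and 621, 566 and 455 with DMSO, falling with both and furthest with TSA (2.04 ± 0.15 between LY294002 and TSA, adjusted p = 2.4e-08). Acss2, which makes acetyl-CoA from acetate, gave 78.2, 79.6 and 76.7 with LY294002, 497, 415 and 461 with TSA, and 128, 136 and 113 with DMSO, so the LY294002 arrays lay lowest and the TSA arrays highest (-0.68 ± 0.13 and 1.87 ± 0.13 against DMSO, -2.55 ± 0.13 between LY294002 and TSA, adjusted p = 6.2e-10). Elovl5, a fatty acid elongase, averaged 1335 with LY294002, 1978 with TSA and 1636 with DMSO, and its fall with LY294002 (adjusted p = 0.044) was lost without LY294002 arrays 1, 2 or 3 (0.122, 0.126 and 0.0619), TSA arrays 1 or 2 (0.0548 and 0.0549) or DMSO arrays 2 or 3 (0.173 and 0.0916). Fasn, the fatty acid synthase, averaged 518 with LY294002, 118 with TSA and 613 with DMSO and was called with TSA only (2.13 ± 0.11 between LY294002 and TSA, adjusted p = 3.9e-10).

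In genes moved the same way the size of the change with each inhibitor was set side by side. The difference between LY294002 and TSA is that between the changes the sort used, on the same arrays, so the counts are a description. The direct comparison called 196 of the 367 genes higher with both, 182 of them lower with LY294002 than with TSA and 14 higher. Of the 222 lower with both it called 127, 122 less lowered by LY294002 and 5 more lowered. In all, 323 of the 589 were called and 266 were not. The median change from DMSO in genes higher with both was 0.49 with LY294002 and 0.77 with TSA, and in genes lower with both -0.52 and -0.84. The larger change was that with TSA in 291 and 166 genes. Over all genes, 29.4% were lower and 29% higher with LY294002 than with TSA; the genes of both classes had first passed the tests against DMSO, so the shares are not of like sets.

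A few genes in these classes were moved further by LY294002. They were named after their values were seen. Usp11, a deubiquitinase, gave 438, 462 and 456 with LY294002, 303, 321 and 309 with TSA, and 223, 231 and 187 with DMSO, with LY294002 highest and no overlap (0.54 ± 0.10, adjusted p = 0.00037). Efnb2, the ephrin B2 ligand, averaged 876 with LY294002, 684 with TSA and 460.2 with DMSO, and its call between LY294002 and TSA (adjusted p = 0.017) was lost without LY294002 array 2 (0.0623). The 5 genes lower with both that LY294002 lowered further were Hpgd, Rhbdl2, Scd1, Chdh and Phlda2. Hpgd, the dehydrogenase that inactivates prostaglandins, gave 72.97, 60.4 and 65.2 with LY294002, 179, 214 and 226 with TSA, and 304, 264 and 236 with DMSO, the 3 LY294002 arrays lying below all others (-1.64 ± 0.14, adjusted p = 1.1e-07); its smaller fall with TSA (-0.38 ± 0.14, adjusted p = 0.029) was lost without TSA array 1 or DMSO arrays 1 or 2 (0.133, 0.123 and 0.0571). Scd1, the stearoyl-CoA desaturase, averaged 669 with LY294002, 825 with TSA and 1268 with DMSO, and its call between LY294002 and TSA (adjusted p = 0.037) was lost without LY294002 array 3 or TSA arrays 1 or 2 (0.176, 0.0847 and 0.148). Rhbdl2, a rhomboid protease, averaged 44.1 with LY294002, 76.1 with TSA and 120.3 with DMSO, and its fall with TSA (adjusted p = 0.02) was lost without TSA array 1 or DMSO array 3 (0.0999 and 0.0831). Chdh, choline dehydrogenase, averaged 26.2 with LY294002, 42.4 with TSA and 62.9 with DMSO, under the signal of 50 with both inhibitors. Its call between LY294002 and TSA (adjusted p = 0.014) was lost without TSA array 2 (0.063) and its fall with TSA (adjusted p = 0.039) without TSA arrays 1 or 3 or DMSO arrays 1 or 2 (0.084, 0.13, 0.149 and 0.109). With signals under 50 set to 50, Chdh did not differ between LY294002 and TSA (log2 difference 0), and its fall with LY294002 was lost (0.105).

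**Figure D2:**
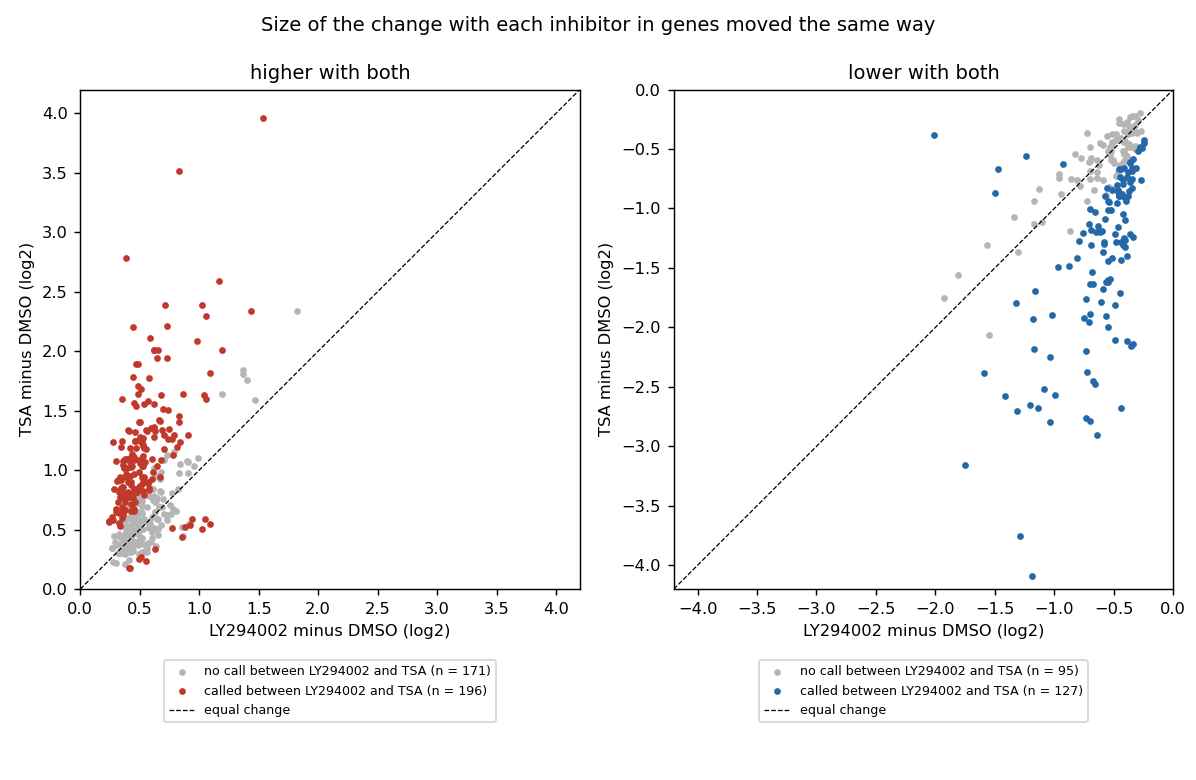
Log2 differences from DMSO with LY294002 (x axis) and TSA (y axis) for the 367 genes higher with both (left) and the 222 lower with both (right); coloured points were called between LY294002 and TSA, grey points were not, and the dashed line marks equal change. Most coloured points lie on the side where TSA changed the gene more, with 14 and 5 on the other.

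Genes that LY294002 raised and TSA lowered included secreted factors and matrix proteins. The direct difference in this class follows from the rule and is given as a description. Angptl7, a secreted angiopoietin-like protein, gave 1538, 1327 and 1274 with LY294002, 32.7, 43.7 and 30.04 with TSA, and 496, 462 and 702 with DMSO. LY294002 lay above and TSA below every DMSO array (1.34 ± 0.16 and -3.96 ± 0.16 against DMSO), and all 3 TSA arrays were under the signal of 50. With signals under 50 set to 50, LY294002 stood 4.78 over TSA on the log2 scale. Igf1, the growth factor upstream of PI3K, gave 1142, 857 and 846 with LY294002, 93.7, 101 and 60.1 with TSA, and 572, 532 and 429 with DMSO, without overlap (0.89 ± 0.19, adjusted p = 0.01, with LY294002 and -2.62 ± 0.19, adjusted p = 1.6e-08, with TSA). Its 4 probe sets tested all ran in that direction between LY294002 and TSA. Sned1, an extracellular matrix protein, gave 872, 738 and 719.6 with LY294002, 98.2, 178 and 124 with TSA, and 409, 435 and 351 with DMSO (0.96 ± 0.19 and -1.62 ± 0.19 against DMSO).

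Adamts5, the aggrecan-cleaving protease of cartilage, gave 664, 724 and 729 with LY294002, 151, 182 and 203 with TSA, and 501, 440.1 and 422 with DMSO. The LY294002 arrays were all above the DMSO arrays, with a difference of 0.64 ± 0.11 (adjusted p = 0.0036), and the TSA arrays all below, with -1.36 ± 0.11 (adjusted p = 7.7e-08). Fbln7, a fibulin, averaged 1370.4 with LY294002, 424 with TSA and 753 with DMSO and stood in the same order. Svep1, an adhesion protein of the matrix, averaged 711 with LY294002, 83.9 with TSA and 331 with DMSO, and its rise with LY294002 (adjusted p = 0.015) was lost without LY294002 arrays 2 or 3 (0.0525 and 0.0555). Pcsk6, a proprotein convertase, averaged 362 with LY294002, 95.5 with TSA and 201 with DMSO; its rise with LY294002 (adjusted p = 0.014) was lost without LY294002 arrays 2 or 3 or DMSO array 2 (0.052, 0.0554 and 0.0509).

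Genes that LY294002 lowered and TSA raised included a keratin, a receptor kinase and stress and glucose genes. Krt18, a keratin of simple epithelia, gave 69.1, 71.2 and 56.4 with LY294002, 1172, 1025 and 978 with TSA, and 260.1, 249 and 229.6 with DMSO, with each group apart from the others (-1.91 ± 0.12, adjusted p = 1.5e-06, with LY294002 and 2.10 ± 0.12, adjusted p = 1.7e-09, with TSA). Ddit4, which restrains mTOR, gave 199, 199 and 242 with LY294002, 1154, 1115 and 864 with TSA, and 469, 480.1 and 472 with DMSO (-1.16 ± 0.19 and 1.13 ± 0.19 against DMSO). Met, the receptor of hepatocyte growth factor, gave 138, 111 and 95.4 with LY294002, 562, 677 and 594 with TSA, and 288, 238 and 210.2 with DMSO (-1.10 ± 0.20 and 1.32 ± 0.20 against DMSO). In Krt18, Ddit4 and Met the DMSO arrays lay between LY294002 and TSA with no overlap.

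Tuba4a, an alpha-tubulin, averaged 138 with LY294002, 632 with TSA and 293 with DMSO, although 1 of its 3 probe sets averaged 155, 256 and 226 in the same order of groups. Procr, the endothelial protein C receptor, averaged 61.8 with LY294002, 325 with TSA and 131 with DMSO, and Col18a1, a basement membrane collagen, 123 with LY294002, 615 with TSA and 246 with DMSO. Slc2a3, a glucose transporter, gave 76.2, 80.7 and 60.1 with LY294002, 624, 602 and 581 with TSA, and 129.9, 116 and 110.0 with DMSO (-0.72 ± 0.14, adjusted p = 0.0059, and 2.35 ± 0.14, adjusted p = 2.2e-09, against DMSO). It belonged to the 28 glycolysis and hypoxia genes tested, of which 6 fell with LY294002 and rose with TSA: Slc2a3, Hk1, Pfkp, Aldoc, Tpi1 and the lactate exporter Slc16a3. The fall with LY294002 of all but Slc2a3 was lost without single arrays. For Hk1, a hexokinase, these were LY294002 arrays 1 and 3 and DMSO arrays 2 and 3 (0.118, 0.0677, 0.086 and 0.0711), and for Pfkp, a phosphofructokinase, LY294002 arrays 1 and 2 and DMSO arrays 1 and 3 (0.0517, 0.0937, 0.0672 and 0.0685). For the aldolase Aldoc they were LY294002 arrays 1 and 2 and DMSO arrays 1 and 2 (0.0701, 0.126, 0.083 and 0.125), and for Slc16a3 LY294002 arrays 1 and 2 and DMSO arrays 2 and 3 (0.128, 0.098, 0.0884 and 0.123). The fall of Aldoc was also lost with signals under 50 set to 50 (0.163). Tpi1, triosephosphate isomerase, lost its fall with LY294002 without LY294002 array 2 or DMSO array 2 (0.0509 and 0.0526) and its rise with TSA without TSA arrays 1 or 2 or DMSO array 1 (0.0517, 0.0678 and 0.0613). Over the list, 4 were higher and 17 lower with LY294002 than with TSA (median -0.63), beside 29% and 29.4% of all genes (median -0.02). The class lower with LY294002 and higher with TSA held 0.953% of all genes.

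**Figure D3:**
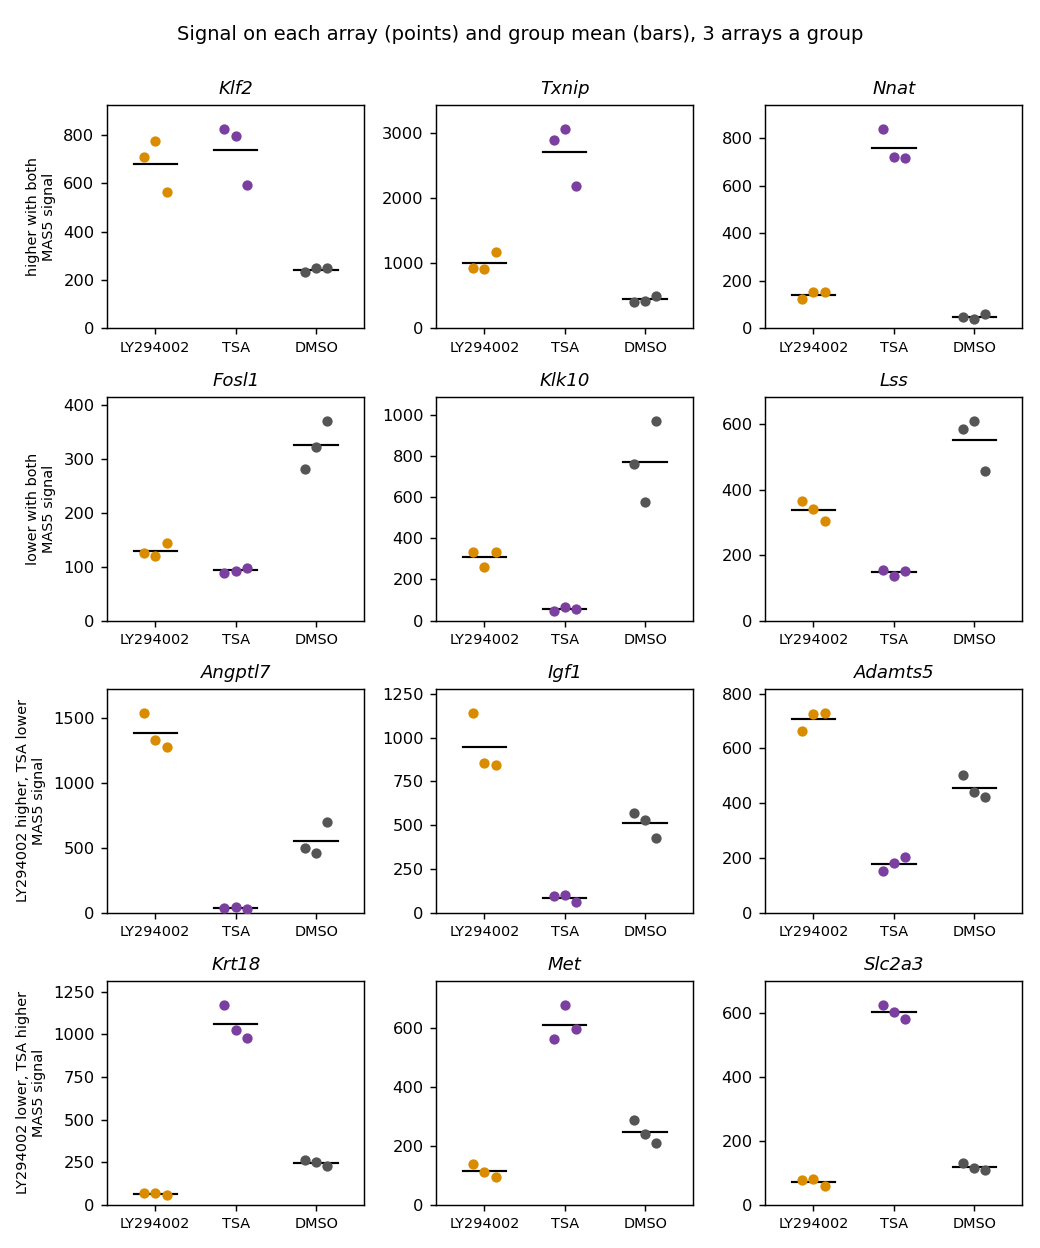
MAS5 signal (y axis, linear from 0) on each of the 3 LY294002, 3 TSA and 3 DMSO arrays (points) with the group mean (bar), for 3 genes of each of the 4 classes. Klf2, Txnip and Nnat lie above DMSO with both inhibitors, Fosl1, Klk10 and Lss below it with both, and Angptl7, Igf1, Adamts5, Krt18, Met and Slc2a3 on opposite sides.

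Genes that LY294002 moved against both DMSO and TSA, with no call for TSA against DMSO, included a matrix protease, an inhibitor of such proteases, receptors and a Wnt antagonist. Adamts9, a matrix protease, gave 638, 621 and 663 with LY294002, 215, 268 and 196 with TSA, and 217, 345 and 216 with DMSO, with TSA and DMSO overlapping and LY294002 above both (1.34 ± 0.16, adjusted p = 0.00031; 1.51 ± 0.16, adjusted p = 1.1e-06). A second probe set of Adamts9 stayed near the lower limit of signal in all groups. Reck, an inhibitor of matrix proteases, gave 1430.4, 1483 and 1520.2 with LY294002, 695, 795 and 831 with TSA, and 824, 863 and 724 with DMSO, and Sfrp1, a secreted Wnt antagonist, gave 821, 821 and 827 with LY294002, 507, 526 and 478 with TSA, and 469, 468 and 431 with DMSO. In both, the LY294002 arrays lay above all others (0.94 ± 0.08 and 0.71 ± 0.10 against TSA). Npr3, the natriuretic peptide clearance receptor, averaged 319 with LY294002, 189.5 with TSA and 157 with DMSO and Ptger4, a prostaglandin E2 receptor, 386 with LY294002, 221 with TSA and 187 with DMSO. Zfp799 averaged 315 with LY294002, 173 with TSA and 184 with DMSO, and its rise with LY294002 (adjusted p = 0.015) was lost without LY294002 arrays 1 or 2 or DMSO arrays 2 or 3 (0.051, 0.0654, 0.0535 and 0.0706).

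Prg4, the joint lubricant lubricin, fell with LY294002 alone, giving 151, 159 and 162 with LY294002, 242, 523 and 425 with TSA, and 352, 338 and 386 with DMSO (-1.19 ± 0.22, adjusted p = 0.0047, against DMSO; -1.26 ± 0.22, adjusted p = 0.00015, against TSA). The TSA arrays of Prg4 spanned the range of the DMSO arrays. Scarb1, a lipoprotein receptor, gave 397, 329.9 and 425 with LY294002, 639, 625 and 756 with TSA, and 728, 752 and 791 with DMSO (-0.99 ± 0.10 against DMSO, -0.81 ± 0.10 against TSA), and Mitf, a transcription factor of the MiT family, gave 284, 216 and 186 with LY294002, 346, 451 and 412 with TSA, and 373, 399 and 368 with DMSO (-0.75 ± 0.16 and -0.83 ± 0.16). In Scarb1 and Mitf the LY294002 arrays lay below every other array. Ampd3, Tm4sf1 and Rrp9 averaged 111 with LY294002, 284 with TSA and 226 with DMSO for Ampd3, 524 with LY294002, 912 with TSA and 1009 with DMSO for Tm4sf1 and 137 with LY294002, 232 with TSA and 231 with DMSO for Rrp9, and the call of Rrp9 with LY294002 (adjusted p = 0.017) was lost without DMSO array 3 (0.0638).

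The study had selected Adamts5, Phlda2, F13a1 and Nr4a1 with the help of these arrays, beside gene sets and arrays of growth plate zones. Their array values here are therefore not independent evidence of a direction. By real-time PCR the paper reported Phlda2 and F13a1 lower and Adamts5 and Nr4a1 higher with LY294002, and it found less factor XIIIa protein. Phlda2, an imprinted pleckstrin homology gene, gave 32.7, 31.04 and 37.3 with LY294002, 49.8, 50.7 and 55.2 with TSA, and 96.3, 84.5 and 105 with DMSO. Both inhibitors lay below DMSO; LY294002 lay below TSA, with a difference of -0.63 ± 0.23 (adjusted p = 0.034), a call lost without LY294002 arrays 1 or 2 (0.0736 and 0.0921), TSA arrays 1, 2 or 3 (0.0577, 0.0616 and 0.0871) or with signals under 50 set to 50 (0.852). F13a1, a coagulation factor subunit also made by macrophages, gave 144, 123 and 125 with LY294002, 28.98, 25.3 and 38.7 with TSA, and 197, 233 and 204 with DMSO, with TSA lowest (2.09 ± 0.16, adjusted p = 3.3e-08). Its fall with LY294002 (adjusted p = 0.016) was lost without LY294002 arrays 2 or 3 or DMSO array 2 (0.0612, 0.0522 and 0.0667). Nr4a1, an immediate early nuclear receptor, gave 764, 1020.0 and 239 with LY294002, 1059.5, 1044 and 343 with TSA, and 145, 191 and 178 with DMSO; array 3 was far below arrays 1 and 2 with both inhibitors, and LY294002 and TSA were not called different (-0.34 ± 0.61, adjusted p = 0.66). Against DMSO, Nr4a1 was called with TSA (2.09 ± 0.61, adjusted p = 0.0084) and not with LY294002 (1.75 ± 0.61, adjusted p = 0.09), though with the replicate number as a block it was (adjusted p = 0.00471).

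Transcripts of PI3K pathway components were divided between the classes. Higher with both inhibitors were 3 and lower with both 0 (3.12% and 1.89% of all genes were). Higher with LY294002 and lower with TSA was 1, and the reverse held for 1 (1.14% and 0.953% of all genes). Of 32 tested, 8 were higher and 1 lower with LY294002 than with DMSO (5.63% and 3.84% of all genes were), 13 were higher and 7 lower with TSA (30.6% and 28.4% of all genes), and 10 were higher and 9 lower with LY294002 than with TSA (29% and 29.4% of all genes; median -0.06), shares near those of all genes between the inhibitors. Igf1r, the IGF1 receptor, averaged 798 with LY294002, 893 with TSA and 498 with DMSO, higher with both and not called between them (adjusted p = 0.41). Irs1, an adaptor of that receptor, averaged 2076 with LY294002, 1457 with TSA and 1502 with DMSO, higher with LY294002 than with TSA (0.51 ± 0.11, adjusted p = 0.00098); its call against DMSO (adjusted p = 0.016) was lost without LY294002 arrays 2 or 3 (0.0502 and 0.0597). Pik3r3, a regulatory subunit, averaged 92.8 with LY294002, 247 with TSA and 177 with DMSO and belonged to the opposite class (-1.40 ± 0.15, adjusted p = 1e-06); its rise with TSA (adjusted p = 0.013) was lost without TSA arrays 1 or 2 (0.0665 and 0.0561). Pik3ip1, an inhibitor of PI3K, averaged 97.6 with LY294002, 36.9 with TSA and 112 with DMSO and fell with TSA only (1.39 ± 0.16, adjusted p = 2e-06). Igf1r and Irs1 were named after their values were seen.

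Of 24 FoxO-regulated genes, 8 were higher and 0 lower with LY294002 against DMSO (median 0.27, against 0.01 over all genes), and 16 were higher and 1 lower with TSA (median 0.71, against 0.00). Between LY294002 and TSA, 5 were higher and 10 lower (median -0.34, against -0.02). The shares over all genes were 5.63% higher and 3.84% lower with LY294002, and 30.6% and 28.4% with TSA. Between the inhibitors they were 29% and 29.4%. The 6 that were higher with both were Klf2, Txnip, Gadd45a, Ccng2, Rbl2 and Ulk1, and the other 2, Insr and Pink1, were not called with TSA. For Rbl2 the call with LY294002 (adjusted p = 0.044) was lost without LY294002 arrays 1, 2 or 3 (0.114, 0.0767 and 0.113), TSA arrays 1, 2 or 3 (0.0527, 0.0536 and 0.0545) or DMSO arrays 2 or 3 (0.132 and 0.123). Gadd45a, a growth arrest gene, averaged 224 with LY294002, 243 with TSA and 143 with DMSO, and Ccng2, an atypical cyclin, 342 with LY294002, 401 with TSA and 225 with DMSO. Insr, the insulin receptor, averaged 161 with LY294002, 104 with TSA and 109.9 with DMSO, higher with LY294002 than with TSA (0.62 ± 0.11, adjusted p = 0.00014). Sesn3, a sestrin, averaged 475 with LY294002, 1034 with TSA and 519.7 with DMSO and was higher with TSA alone (-1.12 ± 0.12, adjusted p = 8.8e-07).

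Immediate early genes were moved by TSA in greater number. Of 28, 5 were higher and 1 lower with LY294002 against DMSO (median 0.58; 13 and 1 with the replicate number as a block), 22 were higher and 1 lower with TSA (median 0.95), and 2 were higher and 10 lower with LY294002 than with TSA (median -0.52). Of all genes, 5.63% were higher and 3.84% lower with LY294002, 30.6% and 28.4% with TSA, and 29% and 29.4% between the inhibitors. The 5 were Rhob, Dusp1, Ier5, Nr4a2 and Fosl2, and the lower one was Fosl1. Of the 5, Rhob alone was called without any 1 array; beside Dusp1, the call against DMSO was lost for Ier5 without LY294002 arrays 1 or 2, TSA array 2 or DMSO arrays 1, 2 or 3 (0.14, 0.143, 0.0511, 0.052, 0.155 and 0.0771), for Nr4a2 without LY294002 arrays 2 or 3 or DMSO arrays 1 or 3 (0.0728, 0.0658, 0.0533 and 0.0519) and for Fosl2 without LY294002 arrays 1, 2 or 3, TSA array 1 or DMSO arrays 2 or 3 (0.149, 0.0689, 0.0682, 0.0512, 0.121 and 0.101). Rhob, a small GTPase, gave 2037, 2189 and 2171 with LY294002, 4559.9, 4816 and 3635 with TSA, and 1184, 1569 and 1609.8 with DMSO, with the groups apart (-1.01 ± 0.12, adjusted p = 5.2e-06). Fos gave 2154, 2262 and 327 with LY294002, 2175, 3033 and 795 with TSA, and 490.0, 608 and 383 with DMSO, so array 3 was the lowest in all 3 groups.

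Cartilage genes were higher with LY294002 than with TSA nearly throughout. Of 25 members tested, 23 were higher and 0 lower with LY294002 than with TSA (median 2.50, against -0.02 over all genes). Against DMSO, 24 were lower with TSA (median -2.26) and 1 was higher with LY294002 (median 0.24; 10 with the replicate number as a block). The 1 was Matn4, a matrilin, at 693 with LY294002, 71.1 with TSA and 478 with DMSO; its call (adjusted p = 0.045) was lost without LY294002 arrays 1, 2 or 3 (0.144, 0.101 and 0.0653), TSA array 2 (0.0549) or DMSO arrays 1 or 3 (0.0912 and 0.139). Sox9, the transcription factor that drives these genes, averaged 898 with LY294002, 296 with TSA and 833 with DMSO (1.64 ± 0.23 between LY294002 and TSA, adjusted p = 2.3e-05), and Comp, a matrix glycoprotein, 3482 with LY294002, 636 with TSA and 2373 with DMSO (2.47 ± 0.23, adjusted p = 2.5e-07). Of 16 hypertrophy and mineralization genes, 10 were higher and 1 lower with LY294002 than with TSA (median 0.89). For both lists, the shares over all genes were 29% higher and 29.4% lower between the inhibitors. Against DMSO, 28.4% of all genes were lower with TSA and 5.63% higher with LY294002. Mmp13, the collagenase of hypertrophic cartilage, gave 3497, 3265 and 3784 with LY294002, 412, 420.4 and 1140.1 with TSA, and 2701, 3069.6 and 3500.1 with DMSO (2.59 ± 0.27, adjusted p = 9.3e-07), while Col10a1, the collagen of hypertrophic cells, gave 323, 416 and 921 with LY294002, 375, 515 and 916 with TSA, and 219.8, 374 and 1049 with DMSO and differed less between groups than within them.

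Of 23 matrix proteases and inhibitors, 15 were higher and 3, Plat, Timp3 and Htra1, lower with LY294002 than with TSA (median 0.96). The shares over all genes, here and for the lists that follow in this paragraph, were 29% higher and 29.4% lower (median -0.02). Plat, tissue plasminogen activator, averaged 199.9 with LY294002, 1119 with TSA and 247 with DMSO (-2.50 ± 0.14, adjusted p = 1.2e-09). The 6 IGF binding proteins included 4 higher and 1 lower with LY294002 than with TSA; Igfbp2 was the lower one, at 291 with LY294002, 1402 with TSA and 241 with DMSO (-2.26 ± 0.21, adjusted p = 3.5e-07). Of 12 hedgehog genes 7 were higher and 0 lower (median 0.58), with Smo, the signal-transducing receptor, at 1083 with LY294002, 309 with TSA and 865 with DMSO (1.83 ± 0.14, adjusted p = 2.9e-08).

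Genes of proliferation were called between the inhibitors and seldom with LY294002. The shares over all genes were 29% higher and 29.4% lower with LY294002 than with TSA (median -0.02). Against DMSO, 28.4% of all genes were lower with TSA and 3.84% lower with LY294002. All 28 G2 and mitosis genes were higher with LY294002 than with TSA (median 1.98), 28 were lower with TSA than with DMSO and 1, the mitotic kinase gene Plk1, was lower with LY294002 (4 with the replicate number as a block). Of 31 S phase genes, 24 were higher and 1, Fen1, lower than with TSA (median 1.13), and 0 were called between LY294002 and DMSO (median -0.13; 3 lower with the block). The call of Plk1 (adjusted p = 0.043) was lost without LY294002 arrays 1 or 2 (0.093 and 0.164), TSA arrays 1, 2 or 3 (0.0536, 0.0535 and 0.0507) or DMSO arrays 2 or 3 (0.117 and 0.14), and that of Fen1 (adjusted p = 0.041) without LY294002 arrays 1 or 2 (0.136 and 0.0778) or TSA arrays 1 or 2 (0.0709 and 0.138). Cdk1, the kinase that starts mitosis, averaged 1279 with LY294002, 328 with TSA and 1303 with DMSO (1.96 ± 0.09, adjusted p = 1.1e-10) and Ccnd1, cyclin D1, 1661 with LY294002, 638 with TSA and 1905 with DMSO (1.38 ± 0.09, adjusted p = 8.1e-09). The RNA was from whole cultures, in which fewer cells of a kind and less RNA per cell cannot be told apart.

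Among deacetylases themselves, 3 of 9 were higher with LY294002 than with TSA (Hdac2, Hdac4 and Hdac7) and 3 lower (Hdac1, Hdac6 and Hdac11), and 0 were called between LY294002 and DMSO. Of all genes, 29% were higher and 29.4% lower with LY294002 than with TSA, so these shares are near those of all genes. The call between LY294002 and TSA was lost for Hdac4 without LY294002 arrays 1, 2 or 3, TSA arrays 1, 2 or 3 or DMSO array 3 (0.0621, 0.0895, 0.123, 0.106, 0.0899, 0.0653 and 0.0504), for Hdac2 without LY294002 array 1 (0.0788), for Hdac6 without LY294002 array 1 or TSA array 2 (0.0994 and 0.065) and for Hdac11 without LY294002 array 1 or TSA array 2 (0.0555 and 0.0672). Hdac7 averaged 249 with LY294002, 136 with TSA and 234 with DMSO (0.88 ± 0.13, adjusted p = 3.6e-05) and Hdac1 1128 with LY294002, 1456 with TSA and 1169.8 with DMSO (-0.37 ± 0.09, adjusted p = 0.003). Of 13 histone genes, 7 were higher and 3 lower with LY294002 than with TSA (median 0.31), Cenpa, the centromeric variant, at 802 with LY294002, 152 with TSA and 945 with DMSO and H2aj at 966 with LY294002, 2172 with TSA and 925 with DMSO marking both directions (2.40 ± 0.11 and -1.17 ± 0.08). Neuronal genes stood on the TSA side, 0 of 26 tested (40 listed) higher and 22 lower with LY294002 (median -1.84). Interferon-stimulated genes did too, 1 of 18 tested (24 listed) higher and 15 lower (median -1.26). A mean signal of 50 in 1 group sufficed for testing, so genes reaching it with TSA alone entered and could hardly be higher with LY294002. With 50 required in 2 of 5 groups, 2940 of all genes were lower and 3360 higher, against 3457 and 3403. These 2 lists were not recounted with that filter. Rsad2, an antiviral enzyme, averaged 19.02 with LY294002, 406 with TSA and 29.9 with DMSO (-4.42 ± 0.24, adjusted p = 7.5e-10).

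**Figure D4:**
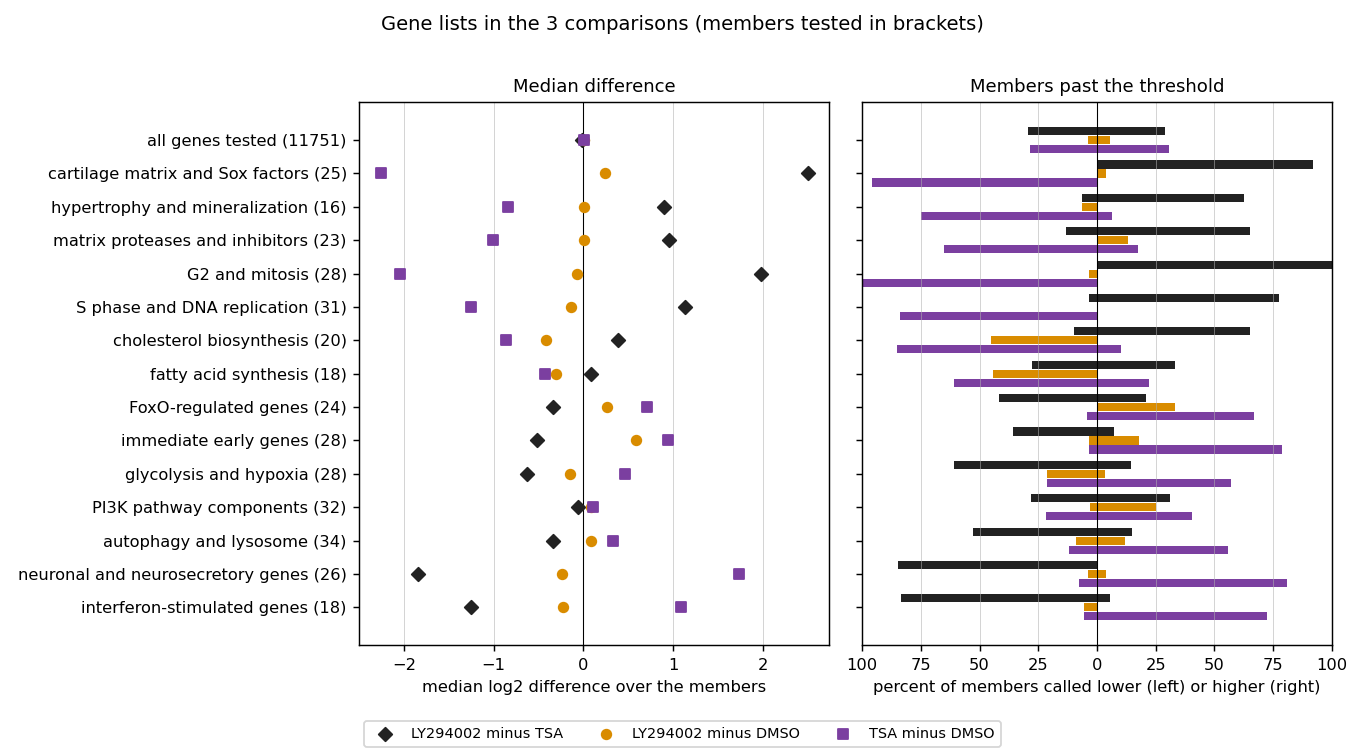
Gene lists in the comparisons LY294002 minus TSA, LY294002 minus DMSO and TSA minus DMSO, with the median log2 difference over the members on the left and the percent of members called lower or higher on the right (members tested in brackets). Cartilage, G2 and mitosis genes lie furthest on the LY294002 side and neuronal and interferon genes on the TSA side, whereas the LY294002 minus DMSO medians stay close to 0 for most lists. Genes that reached the signal limit with TSA alone were tested and could hardly lie elsewhere than on the TSA side.

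Markers of other cell types moved between LY294002 and TSA as well. Higher with LY294002 than with TSA were 8 of 10 fibroblast markers tested (2 were lower), 4 of 6 smooth muscle (0 lower), 9 of 11 skeletal muscle (0 lower) and 6 of 7 macrophage and leukocyte markers (1 lower), beside 6 of 7 chondrocyte markers (0 lower). The shares over all genes were 29% higher and 29.4% lower. The lower ones were Thy1 (315 with LY294002, 818 with TSA), Cd34 (95.5 and 265) and the macrophage marker Cd68 (59.2 and 292). The summed signal of 10 fibroblast markers was 11623 to 12629 with LY294002, 6027 to 6311 with TSA and 10708 to 13073 with DMSO. That of all 8 smooth muscle markers on the array, tested or not, was 7704 to 8287, 3389 to 3870 and 5997 to 7579 in the same order of groups. Skeletal muscle markers summed to 740 to 1289 with LY294002, 335 to 395 with TSA and 887 to 1769 with DMSO. All 12 macrophage and leukocyte markers on the array, tested or not, summed to 840 to 999, 642 to 765 and 931 to 1045. Endothelial markers were near the lower limit, 7 of 9 having means under 50 in all 3 groups, and Ptprc, Pecam1 and Cdh5 were under 50 throughout. The chondrocyte markers summed to 20775 to 27619 with LY294002, 10362 to 11872 with TSA and 16115 to 24578 with DMSO. Such sums weigh strong probe sets most, so they do not measure how far the members moved. With LY294002 and TSA, Col2a1 averaged 5509 and 5634 and Col9a1 5258 and 3413. The other chondrocyte markers were Acan (2936 and 519), Matn1 (2824 and 198), Comp (3482 and 636), Hapln1 (2691 and 421) and Sox9 (898 and 296). The part of a changed mixture of cells in the differences above was not tested.

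For some of the genes above, LY294002 was also set directly against the UO126 and SB202190 arrays. Neither of these inhibitors was set against DMSO, so a missing call does not show a shared change. Angptl7 averaged 320.1 with UO126 and 332 with SB202190, and LY294002 lay above them by 2.11 (adjusted p = 1.2e-05) and 2.06 (adjusted p = 4.7e-06). Txnip stood 1.48 and 0.85 above them and Sfrp1 0.82 and 0.83, all called. For Krt18 the UO126 arrays, at 70.6, were not called different from LY294002 (-0.11, adjusted p = 0.67) while SB202190, at 201, was (-1.62, adjusted p = 3.9e-06). Met and Klk10 ran the same way, with 0.11 and 0.40 against UO126 (adjusted p = 0.8 and 0.33) and -0.88 and -1.31 against SB202190 (adjusted p = 0.018 and 0.0027).

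The promoters of the classes were searched for 5 short motifs on both strands, over 9517 of the 11751 genes (81.0%). The FoxO element GTAAACA lay in 1.28% of promoters of genes higher with both, 3.35% of genes lower with both, 2.91% of genes higher with LY294002 and lower with TSA and 1.18% of the reverse, beside 2.10% of all promoters. The GC box GGGCGG lay in 71.5%, 55.9%, 62.1% and 62.4% of the same classes, beside 60.9%. The sterol element core CACCCCAC (1.60%, 3.35%, 0.971% and 2.35%, beside 2.73%), the cAMP element TGACGTCA (2.88%, 2.23%, 3.88% and 2.35%, beside 2.73%) and the E-box CACGTG (9.94%, 9.50%, 11.7% and 15.3%, beside 8.56%) are given as descriptions with no test. Of the FoxO-regulated list, 2 of 21 promoters held GTAAACA, and of the cholesterol list 1 of 16 held CACCCCAC.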

How the data were processed

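The 15 arrays (Affymetrix Mouse Genome 430 2.0) comprised 3 each of LY294002, TSA, UO126, SB202190 and DMSO. The authors deposited MAS5 signal intensity for 45101 probe sets, 1 value a probe set after scaling within the array; the mean signal with 2% trimmed at each end was 150 on every array, with medians of 29.8 to 39.96, and between 40.9% and 44.96% of probe sets reached a signal of 50. The version of MAS5 is not given in the sources used here.

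Symbols came from the platform annotation, matched to mouse RefSeq: 34958 probe sets had 1 symbol, 932 several and 9211 none listed. The 64 control probe sets were left out. A floor of 1 was applied and the signals were taken to log2. The 21765 probe sets with a mean of 50 in at least 1 of 5 groups were fitted with limma 3.58.1 in R 4.3.3 (15 arrays, 5 groups, variance trend, two-sided, Benjamini-Hochberg over all 21765 in each comparison, threshold 0.05). Simulated data with known changes were used to test the fit. A gene was represented by its probe set with the highest mean log2 signal, and in 59 of 2342 genes with several called probe sets these disagreed in direction.

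The genes, classes and lists were chosen with earlier results of these data known. Named by rule were the 8 largest rises and 8 largest falls between LY294002 and TSA, the 6 leading genes of each class (ranked by the smaller of the 2 changes, the highest group reaching 200 and no overlap of arrays) and up to 4 members of each list with the smallest p plus up to 2 in list order; values are printed for some of these. Of 737 list genes, 617 were tested, and all other names were chosen after their values were seen. Arrays of the same number were regarded as paired where every pair's deviations from the group means correlated above 0.1: LY294002 with DMSO gave 0.42, 0.16 and 0.30, LY294002 with TSA 0.113, 0.0316 and 0.0238, and TSA with DMSO 0.096, 0.169 and 0.048. LY294002 and DMSO met this rule. The main fit nevertheless had no block and so ignored the pairing, and the block was run as an alternative. The labels give no source for the pairing, and all 15 arrays correlated best with their own number. Alternatives were other scalings, filters, floors and pseudocounts, no variance trend, the 3 groups alone, the block, TSA set against UO126 and SB202190, and leaving out each array.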

Additional observations from a re-analysis of the deposited data

How the results depend on the processing

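No called difference of a named gene changed sign under an alternative, and the counts between LY294002 and TSA and between TSA and DMSO stayed within 1.5-fold, at 6216 to 6973 and 6335 to 6955 when 1 array was left out. The LY294002 against DMSO count moved, and the classes with it. Without the signal filter it was 727 (427 higher, 300 lower), with 237 genes higher with both, 141 lower with both, 80 higher with LY294002 and lower with TSA and 63 the reverse. With the LY294002, TSA and DMSO arrays alone it was 595 (369 and 226), with 215, 113, 65 and 54, and 78 and 51 higher or lower with LY294002 alone. With replicate number as a block it was 1924 (1117 and 807), with 587, 400, 268, 189, 217 and 161, and the block lost no call of a named gene and added 24 between LY294002 and DMSO, 3 between LY294002 and TSA and 6 between TSA and DMSO. When both changes had to reach 1.5-fold the 4 classes held 94, 80, 29 and 42, and with TSA set against UO126 and SB202190, which share no array with LY294002 against DMSO, 86 genes were higher with LY294002 alone while the other classes stayed within 1.5-fold, though the genes moved the same way fell to 58.9% of those called with both, against 70.5%. UO126 and SB202190 are inhibitors too, so that fall cannot be assigned to the shared DMSO arrays. Leaving out 1 array gave 544 to 1205 (325 to 772 higher, 219 to 433 lower), with 190 to 432, 111 to 217, 62 to 148 and 44 to 91 in the classes and 63 to 182 and 53 to 109 higher or lower with LY294002 alone. Of the named differences called, 207 of 237 between LY294002 and TSA, 57 of 99 between LY294002 and DMSO and 215 of 233 between TSA and DMSO were kept under all alternatives; the cause of the losses was not tested. Signals near 50 or below carry little precision, and 3 arrays a group limit the rest.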

Other observations

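Autophagy and lysosome genes lay on the TSA side of the direct comparison. Of 34 tested, 5 were higher and 18 lower with LY294002 than with TSA (median -0.34, against -0.02 over all genes), and 4 were higher and 3 lower with LY294002 than with DMSO. The shares over all genes were 29% and 29.4% between the inhibitors, and 5.63% and 3.84% with LY294002 against DMSO. Ctsl, the lysosomal protease cathepsin L, averaged 2123 with LY294002, 4144 with TSA and 2046 with DMSO (-0.96 ± 0.09 between LY294002 and TSA, adjusted p = 4.8e-07, limma). Gusb, a lysosomal glucuronidase, ran the other way at 449.6 with LY294002, 161 with TSA and 539 with DMSO (1.48 ± 0.11, adjusted p = 2.5e-08).

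Genes of the amino acid response were higher with LY294002 than with TSA in 15 of 28 and lower in 3 (median 0.41), and endoplasmic reticulum chaperones in 13 of 26 and lower in 4 (median 0.32). For these and the p53 and TGF-beta lists below, the shares over all genes were 29% higher and 29.4% lower (median -0.02). Atf4, the transcription factor of that response, averaged 2168 with LY294002, 834 with TSA and 2065 with DMSO (1.37 ± 0.11, adjusted p = 8.8e-08), and Herpud1, a component of endoplasmic reticulum-associated degradation, 566 with LY294002, 113 with TSA and 619 with DMSO (2.34 ± 0.14, adjusted p = 2.8e-09). Of 22 p53 targets, 2 were higher and 11 lower with LY294002 than with TSA (median -0.36), and Pmaip1, the pro-apoptotic protein Noxa, averaged 40.7 with LY294002, 285 with TSA and 59.7 with DMSO (-2.81 ± 0.19, adjusted p = 1.1e-08). Tgfb2, a growth factor ligand, averaged 431 with LY294002, 1272 with TSA and 399 with DMSO (-1.56 ± 0.08, adjusted p = 5.5e-10), whereas over the 26 TGF-beta and BMP responsive genes 10 were higher and 11 lower.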
